A study of Homo sapiens with 6 samples.

Results

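The neutrophil-attracting chemokine genes CXCL1, CXCL2, CXCL3, CXCL5 and CXCL8 and the related gene CCL20 were followed in DLD1 cells given lentivirus for either a CDKL1-directed small hairpin RNA (shRNA) or a control shRNA. These 6 genes were taken from the 18132 genes measured, through every probe set that the array's annotation assigns to 1 of them alone, and each gene's brightest probe set gave its main value. They were grouped with their rise in this very comparison already known, so their values are given as a description and without a test. DLD1 is an established human colorectal adenocarcinoma line, and CDKL1 is a serine/threonine kinase related to the cyclin-dependent kinases. Cells in RPMI1640 with fetal bovine serum were infected with lentivirus that carried the control shRNA (3 samples) or the CDKL1 shRNA (3 samples), and total RNA of each sample was hybridised to 1 Affymetrix array. The sources used here do not give the hairpin sequences, their number, the time after infection or any selection of infected cells. The samples of a group are described as independent with no word on whether each had its own infection or culture. A p-value here therefore reflects how far these samples scatter, some of which may be technical. All values are log2 expression values from the authors' RMA processing, in which a step of 1 is a doubling.

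Chemokines are small secreted proteins that set the direction in which leukocytes migrate. CXCL1, CXCL2, CXCL3, CXCL5 and CXCL8 (interleukin-8) carry a Glu-Leu-Arg motif before their first cysteines and attract neutrophils through the receptors CXCR2 and, for CXCL8 in particular, CXCR1. CCL20 binds CCR6 and attracts dendritic cells, Th17 cells and B cells, and gut epithelium is a known source of it. In epithelial cells these genes are induced through NF-kappaB and AP-1 by interleukin-1, tumour necrosis factor, interleukin-17 and microbial products, and their transcripts carry AU-rich elements that make them short-lived.

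The promoters of the 6 genes are shown because the genes are known targets of NF-kappaB and were higher together here. The sequences are the 150 bases before the start of each gene in RefSeq (GRCh38.p14), 5′ to 3′ in the direction of the gene. They lie at chr4:73869243-73869392 (plus strand) for CXCL1, chr4:74099196-74099345 (minus strand) for CXCL2, chr4:74038690-74038839 (minus strand) for CXCL3, chr4:73998678-73998827 (minus strand) for CXCL5, chr4:73740419-73740568 (plus strand) for CXCL8 and chr2:227813692-227813841 (plus strand) for CCL20. Capitals mark every match to the NF-kappaB-type motif GGNNTTTCC on either strand.
CXCL1: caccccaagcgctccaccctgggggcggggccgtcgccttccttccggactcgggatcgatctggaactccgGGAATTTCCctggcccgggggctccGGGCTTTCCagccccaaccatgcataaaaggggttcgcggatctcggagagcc
CXCL2: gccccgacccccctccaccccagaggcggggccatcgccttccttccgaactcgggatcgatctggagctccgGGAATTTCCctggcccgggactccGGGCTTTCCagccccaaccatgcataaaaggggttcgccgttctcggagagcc
CXCL3: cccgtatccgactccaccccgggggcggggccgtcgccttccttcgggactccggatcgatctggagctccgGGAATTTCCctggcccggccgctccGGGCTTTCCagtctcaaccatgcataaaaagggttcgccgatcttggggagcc
CXCL5: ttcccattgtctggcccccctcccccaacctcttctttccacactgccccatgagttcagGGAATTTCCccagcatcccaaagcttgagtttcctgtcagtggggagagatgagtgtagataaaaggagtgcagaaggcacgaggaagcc
CXCL8: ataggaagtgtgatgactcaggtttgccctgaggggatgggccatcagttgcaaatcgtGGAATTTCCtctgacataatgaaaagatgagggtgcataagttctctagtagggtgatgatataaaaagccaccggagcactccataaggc
CCL20: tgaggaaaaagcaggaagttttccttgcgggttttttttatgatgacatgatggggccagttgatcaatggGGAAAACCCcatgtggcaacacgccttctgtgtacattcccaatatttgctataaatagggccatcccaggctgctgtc

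All 6 windows held the NF-kappaB-type motif, which occurred in 3.46% of the 35116 promoter windows of the same length and in at least 1 window of 4.28% of the 27305 genes in the table. In CXCL1, CXCL2, CXCL3, CXCL5 and CXCL8 the match read GGAATTTCC and began 78, 77, 78, 90 and 91 bases before the start, and in CCL20 it lay on the opposite strand, 79 bases before the start. CXCL1, CXCL2 and CXCL3 each had a further match, GGGCTTTCC, 53 bases before the start. The AP-1-type motif TGANTCA, which reads the same on both strands, was present in CXCL8 alone of the 6 windows, 137 bases before the start, and in 4.17% of all windows. TATAAA was found in CXCL8 (31 bases before the start) and CCL20 (29 bases), against 6.71% of all windows, and none of these matches overlapped another. The windows of CXCL1, CXCL2 and CXCL3 were 86.3% to 88.8% identical in pairwise alignment, whereas the 12 other pairs of members were 44.0% to 53.1% identical. Of the 24 other chemokine genes outside the Glu-Leu-Arg group with a window in the table, 1 held the NF-kappaB-type motif, CXCL11. Because the 6 genes are known targets of NF-kappaB, a match in each is no independent finding, and nothing is read from these shares. A match describes these letters only and is no measurement of binding in DLD1 cells.

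In the CDKL1 shRNA arrays all 6 genes lay higher than in every control array. CXCL3 and CXCL8 were about 2-fold higher, CXCL2, CXCL1 and CCL20 between 1.29-fold and 1.46-fold higher, and CXCL5 1.12-fold higher. All 6 passed an adjusted p of 0.05 in the fit across all genes (limma, Benjamini-Hochberg), beside 8.97% of all genes that passed in the higher direction. Of the 6, 2 were also at least 1.5-fold higher, beside 0.689% of all genes. All 6 had groups that did not overlap, beside 18.1% of all genes with every CDKL1 shRNA array above every control array and 35.7% with groups apart in either direction. Their median log2 change was 0.49, and that of all genes was -0.01. Because the genes were picked on this comparison, nothing is read from these counts.

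**Figure D1:**
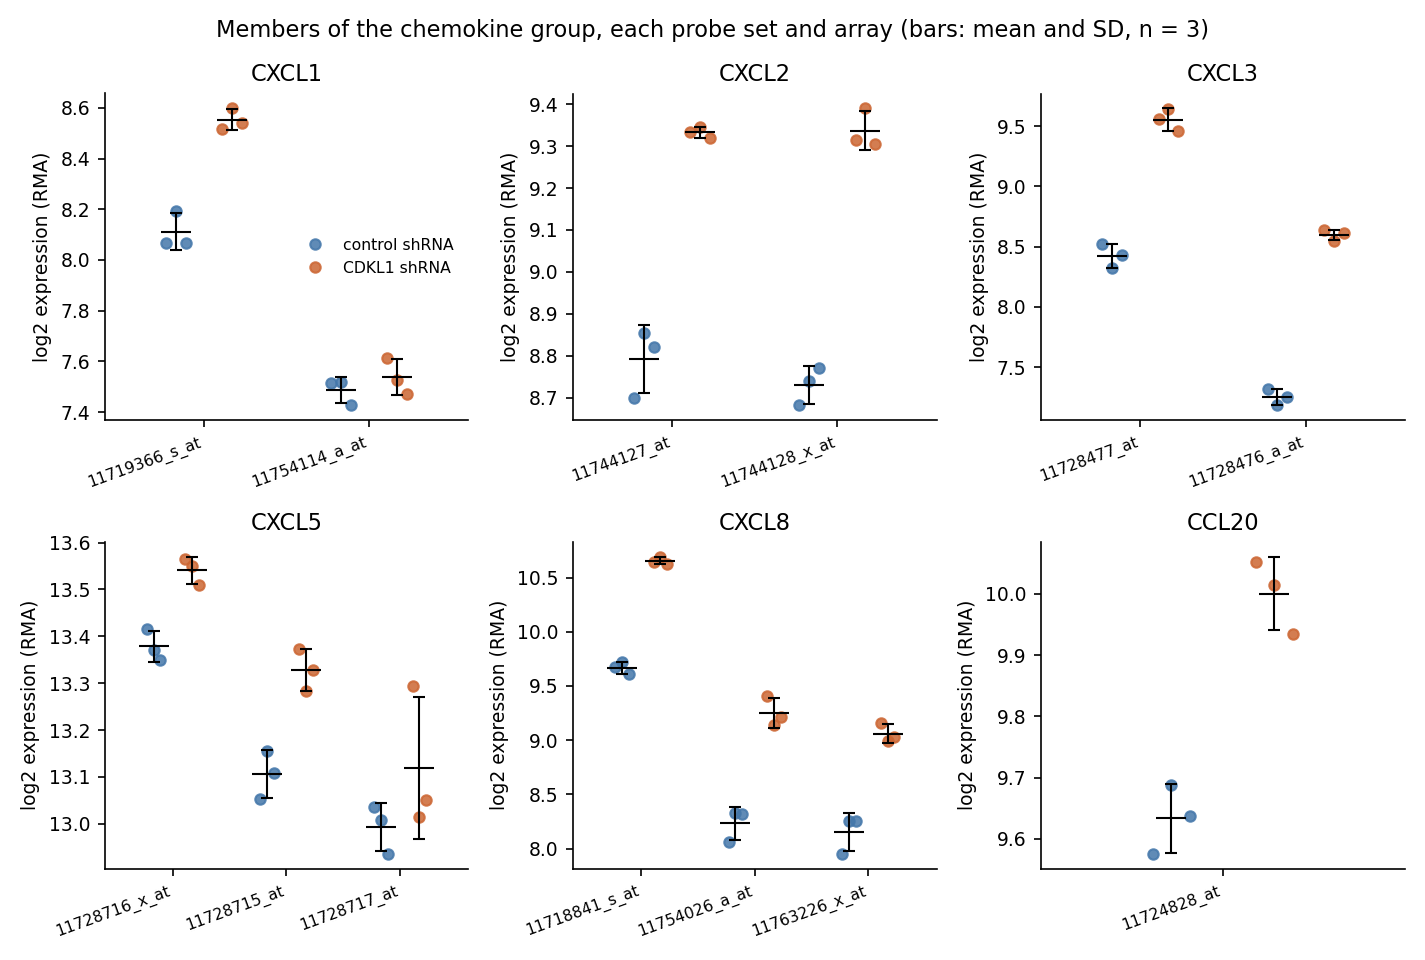
Log2 expression (RMA, vertical axis, its range set per gene) of every probe set of the 6 genes, 1 point per array, with control shRNA in blue, CDKL1 shRNA in orange, and bars for the mean and SD (n = 3). The groups are apart in 11 of the 13 probe sets, and they overlap in CXCL1 probe set 11754114_a_at and CXCL5 probe set 11728717_at.

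CXCL3 had log2 levels of 8.52, 8.32 and 8.43 in control replicates 1, 2 and 3 and of 9.56, 9.64 and 9.46 in CDKL1 shRNA replicates 1, 2 and 3, by probe set 11728477_at. The lowest CDKL1 shRNA array thus stood 0.94 above the highest control array. The mean went from 8.42 ± 0.10 to 9.55 ± 0.09 (SD, n = 3 each), a log2 change of 1.13 (SE 0.07, 95% interval 0.97 to 1.30) or 2.19-fold. Its other probe set, 11728476_a_at, was dimmer, at 7.32, 7.19 and 7.25 in controls and 8.63, 8.55 and 8.61 with CDKL1 shRNA, and changed by 1.35 (SE 0.06), or 2.54-fold. Both probe sets of CXCL3 therefore showed the gap, larger in the dimmer one.

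CXCL8, the main human neutrophil attractant, had log2 levels of 9.68, 9.72 and 9.61 in the control arrays and 10.65, 10.69 and 10.63 in the CDKL1 shRNA arrays, by probe set 11718841_s_at. The arrays of a group lay close together, and the smallest gap between the groups was 0.91. The mean went from 9.67 ± 0.06 to 10.66 ± 0.03 (SD, n = 3 each), a log2 change of 0.99 (SE 0.05, 95% interval 0.88 to 1.10) or 1.98-fold. Probe sets 11754026_a_at and 11763226_x_at gave 1.02 (SE 0.10) and 0.91 (SE 0.09), and the 95% intervals of all 3 probe sets overlapped. The brightest carries the suffix _s, which marks probes that can bind transcripts of several genes.

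CXCL2 had log2 levels of 8.70, 8.85 and 8.82 in the control arrays and 9.33, 9.35 and 9.32 in the CDKL1 shRNA arrays, by probe set 11744127_at. Control replicate 1 was the lowest of the controls, and the CDKL1 shRNA arrays were nearly equal. The log2 change was 0.54 (SE 0.05, 95% interval 0.42 to 0.66), or 1.46-fold, and 0.61 (SE 0.05) by its other probe set, 11744128_x_at.

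CXCL1 had log2 levels of 8.07, 8.19 and 8.07 in the control arrays and 8.52, 8.60 and 8.54 in the CDKL1 shRNA arrays, by probe set 11719366_s_at, a log2 change of 0.44 (SE 0.05, 95% interval 0.32 to 0.57) or 1.36-fold. Its other probe set did not show this. Probe set 11754114_a_at read 7.51, 7.52 and 7.43 in controls and 7.61, 7.53 and 7.47 with CDKL1 shRNA. These groups overlapped, with a log2 change of 0.05 (SE 0.06, 95% interval -0.08 to 0.18). The brighter one has the suffix _s and the dimmer one _a, which marks probes for several transcripts of 1 gene, so the difference of CXCL1 was seen only in the probe set that can also read relatives. The mean over both probe sets gave a log2 change of 0.25.

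CCL20, the CCR6 ligand, was read by 1 probe set, 11724828_at. Its log2 levels were 9.58, 9.69 and 9.64 in the control arrays and 10.05, 10.01 and 9.93 in the CDKL1 shRNA arrays. The groups stood 0.25 apart at their closest. The mean went from 9.63 ± 0.06 to 10.00 ± 0.06 (SD, n = 3 each), a log2 change of 0.37 (SE 0.05, 95% interval 0.24 to 0.49) or 1.29-fold.

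CXCL5 had log2 levels of 13.42, 13.37 and 13.35 in the control arrays and 13.56, 13.55 and 13.51 in the CDKL1 shRNA arrays, by probe set 11728716_x_at. It differed least of the 6 genes, with the closest arrays of the groups 0.09 apart. The log2 change was 0.16 (SE 0.04, 95% interval 0.06 to 0.26), or 1.12-fold. This probe set lay near the upper end of the scale, where the highest value in the table was 14.83. Probe set 11728715_at gave 0.22 (SE 0.05), and in 11728717_at, at 0.13 (SE 0.08), the groups overlapped, with CDKL1 shRNA replicate 1 at 13.29 and replicates 2 and 3 at 13.02 and 13.05. In the fit across all genes CXCL5 no longer passed without control replicate 2 or 3 or any 1 of the CDKL1 shRNA replicates, while its log2 change in the fits without 1 array stayed at 0.15 to 0.18.

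**Figure D2:**
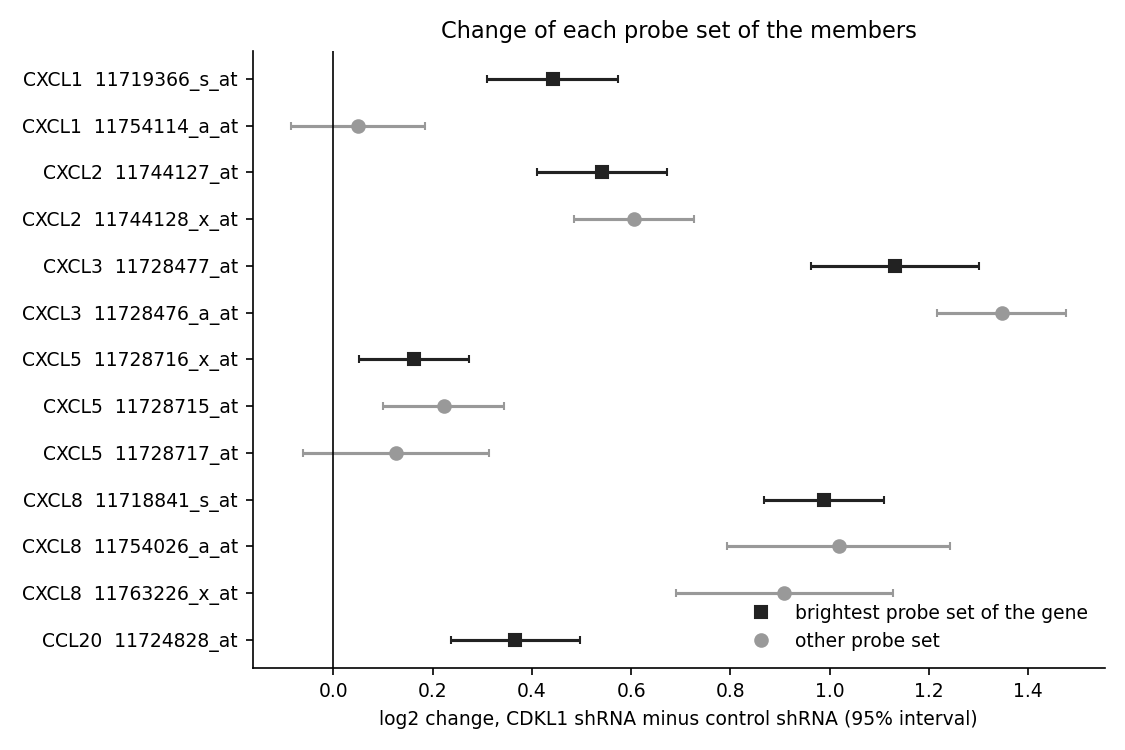
Log2 change (CDKL1 shRNA minus control shRNA, horizontal axis) of the 13 probe sets with 95% intervals from the fit over all probe sets. Squares are the brightest probe set of each gene and circles the others, and the intervals of CXCL1 probe set 11754114_a_at and CXCL5 probe set 11728717_at include 0.

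By the brightest probe sets the changes ran in the order CXCL3, CXCL8, CXCL2, CXCL1, CCL20 and CXCL5. Of the 15 pairs of genes, 5 had 95% intervals that overlapped. These were CXCL3 with CXCL8, CXCL2 with CXCL1, CXCL2 with CCL20, CXCL1 with CCL20, and CCL20 with CXCL5. Neighbours in the order thus had overlapping intervals, except CXCL8 and CXCL2, at 0.88 to 1.10 and 0.42 to 0.66. The promoters of CXCL2 and CXCL3 were 86.3% identical, and the log2 change of CXCL2 was 0.59 smaller than that of CXCL3. The log2 change of CXCL1, whose promoter was 88.1% identical to that of CXCL3, was 0.69 smaller. Over all 13 probe sets the change was positive, from 0.05 to 1.35. In a fit over the 44988 probe sets of 1 gene, 10 of the 13 passed, beside 7.43% of all probe sets that passed in the higher direction, and 11 had groups that did not overlap, beside 17.4%. Of the 13, 5 end in _s or _x and can bind related transcripts, and 2 further probe sets that list a member together with another gene were left out. Another 3 end in _a, with log2 changes of 0.05 to 1.35. The 5 that end in _at alone belonged to CXCL2, CXCL3, CXCL5 and CCL20 and had log2 changes of 0.13 to 1.13.

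CDKL1 itself could not serve to check the knockdown. Its probe set read log2 levels of 4.51, 4.42 and 4.17 in the control arrays and 4.25, 4.20 and 4.08 in the CDKL1 shRNA arrays, so the groups overlapped, and the log2 change was -0.19 (95% interval -0.41 to 0.03, adjusted p = 0.219, limma). These levels lay inside the span of the array's background controls, 2.97 to 4.92 over the 7 control probe sets whose probes have 10 to 16 G or C. This is the background range used throughout. Over all 23 background controls the means spanned 2.74 to 10.74, with a median of 3.69. Over the whole series 3040 of 18132 genes (16.8%) passed, 1627 higher and 1413 lower (7.79%), and this balance went to 1839 and 1040 after each array's median was subtracted. RNA quality was not equal in the groups. For ACTB, whose control probe sets read both ends of the transcript, the 3′ signal exceeded the 5′ signal by log2 values of 1.39 to 1.41 in control arrays and 1.52, 1.73 and 1.55 in CDKL1 shRNA replicates 1, 2 and 3, and the two-sided exact permutation test gave p = 0.1, the smallest that 3 arrays against 3 allow. Replicate 2, with the highest difference, read 10.69 for CXCL8 and 9.64 for CXCL3, against 10.65 and 10.63 and against 9.56 and 9.46 in the other CDKL1 shRNA arrays. Without it the log2 change was 0.97 for CXCL8 and 1.09 for CXCL3. With the ACTB difference as a covariate, 2 of the 6 genes passed, CXCL8 (0.93, SE 0.09) and CXCL3 (1.02, SE 0.12). The other 4 kept positive values of 0.52 for CXCL2, 0.36 for CXCL1, 0.36 for CCL20 and 0.15 for CXCL5, with SEs of 0.08 to 0.10. Without the covariate the SEs of these 4 were 0.04 to 0.05. The ACTB difference was higher in every CDKL1 shRNA array than in any control array, so this covariate overlaps with group and costs precision. Whether a call lost with it reflects this cost or RNA quality therefore cannot be told apart. What part RNA quality has in the differences was not tested further.

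**Figure D3:**
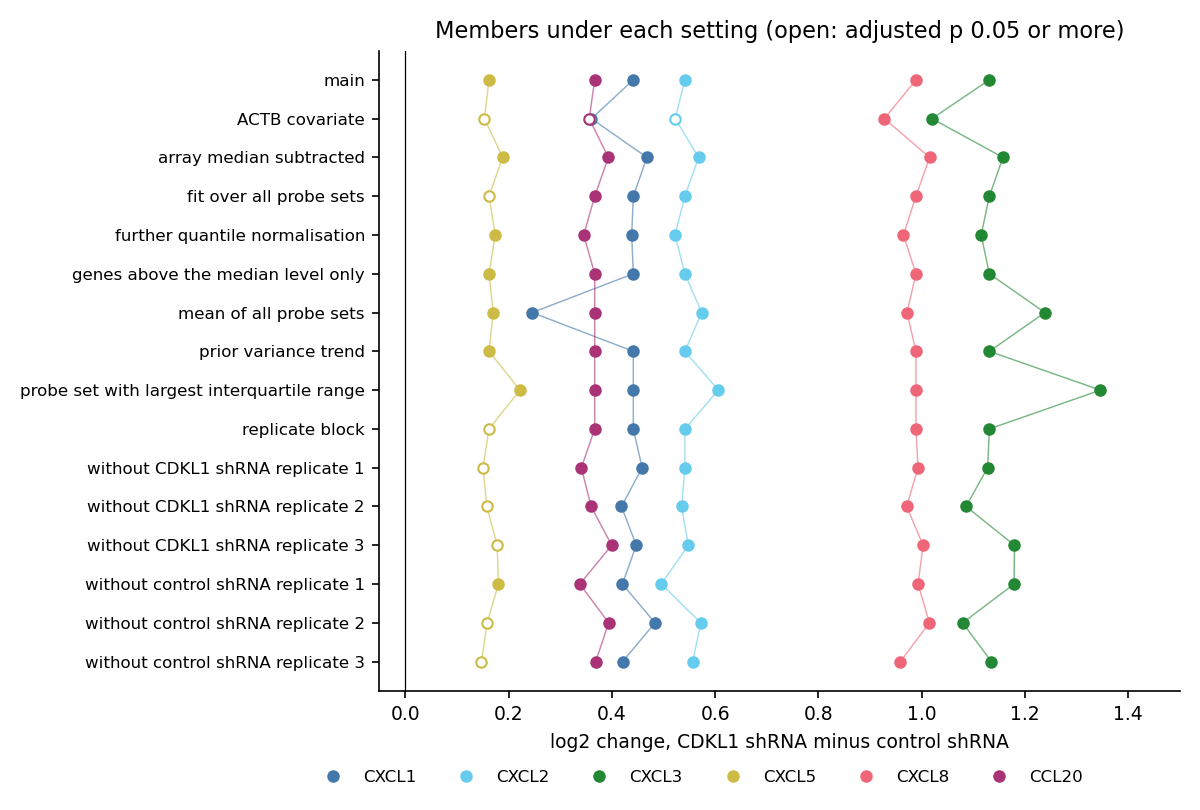
Log2 change (CDKL1 shRNA minus control shRNA, horizontal axis) of each gene, by its brightest probe set as reported (main) and under 15 alternatives (vertical axis), with filled points where the adjusted p was under 0.05 and open points where it was not. CXCL3 and CXCL8 are filled throughout, at 1.02 to 1.35 and 0.93 to 1.02, and CXCL5 is open under 8 of the 15 alternatives.

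CXCL8, CXCL1, CXCL5, CXCL3 and CXCL2 are members of 1 cluster of chemokine genes on chromosome 4, and CCL20 lies on chromosome 2. In RefSeq order the 9 measured chemokine genes of the cluster were CXCL8, CXCL6, PF4V1, CXCL1, PF4, PPBP, CXCL5, CXCL3 and CXCL2, and 6 of them passed, all higher in the CDKL1 shRNA arrays, beside 8.97% of all genes. Of these 6, 5 were picked for their rise in this comparison, so nothing is read from the count. The sixth was PF4, a platelet chemokine, which rose by 0.31 (SE 0.07, adjusted p = 0.0204, limma) from 7.64 ± 0.07 to 7.95 ± 0.11 (SD, n = 3 each). PF4 lost its call without CDKL1 shRNA replicate 1 or control replicate 2 or 3 (adjusted p = 0.054 to 0.0682). PF4V1, its near-identical relative in the cluster, had a log2 change of 0.08 (95% interval -0.17 to 0.34), and since the PF4 pair can share probe signal neither value is certain. The other probe set of PF4 gave 0.32, and that of PF4V1 had means of 7.64 in controls and 7.61 with CDKL1 shRNA. CXCL5, CXCL3 and CXCL2 were neighbours in this order, as were CXCL1 and PF4. CXCL6 and PF4V1 lie between CXCL8 and CXCL1, and PPBP lies between PF4 and CXCL5, and none of these 3 passed.

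**Figure D4:**
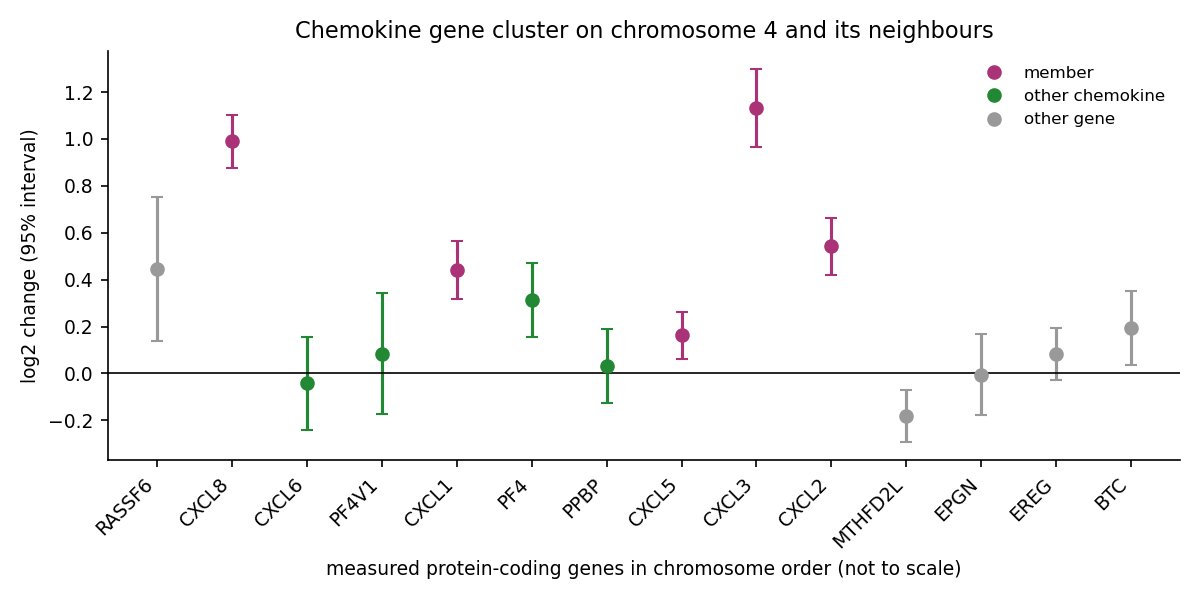
Log2 change with 95% interval (vertical axis) of the measured protein-coding genes from RASSF6 to BTC on chromosome 4, in chromosome order and not to scale, with members in purple, other chemokine genes in green and other genes in grey. CXCL3 (1.13) and CXCL8 (0.99) stand highest, with CXCL6 (-0.04) and PPBP (0.03) near 0 between the members.

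CXCL6 and PPBP complete the chemokines with the Glu-Leu-Arg motif. CXCL6 read 4.28, 4.17 and 4.46 in the control arrays and 4.23, 4.18 and 4.36 in the CDKL1 shRNA arrays, a log2 change of -0.04 (95% interval -0.24 to 0.16). PPBP read 3.41, 3.35 and 3.42 against 3.29, 3.54 and 3.43, a log2 change of 0.03 (95% interval -0.13 to 0.19). Both lay within the range of the background controls, so a change could not be read reliably at these levels. A dimmer probe set of CXCL6 gave 0.16. The promoter window of CXCL6 also held GGAATTTCC, 89 bases before the start, and that of PPBP held no match to the NF-kappaB-type motif.

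The receptors did not pass in either direction. Of the 5 measured genes CXCR1, CXCR2, CCR6, ACKR1 and ACKR2, 0 passed in limma, while 2 reached an unadjusted p under 0.05, with a median log2 change of -0.04. CXCR2, the shared receptor of the Glu-Leu-Arg chemokines, read 6.01, 5.99 and 5.81 in controls and 6.19, 6.17 and 6.12 with CDKL1 shRNA. Its arrays did not overlap between groups, with a log2 change of 0.22 (SE 0.06, adjusted p = 0.0551, limma), and it passed after a further quantile normalisation (0.25, adjusted p = 0.029) or after each array's median was subtracted (0.25, adjusted p = 0.0254). CXCR1 had a log2 change of -0.02 (95% interval -0.29 to 0.26) and CCR6, the CCL20 receptor, of -0.04 (95% interval -0.27 to 0.19). ACKR1, a scavenging receptor, had -0.12 (95% interval -0.35 to 0.11). ACKR2, a scavenger of CC chemokines, had -0.23 (SE 0.08, adjusted p = 0.0914, limma), and passed without CDKL1 shRNA replicate 2 (-0.30, adjusted p = 0.0349).

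Of 32 measured chemokine genes outside the Glu-Leu-Arg group 4 rose, 1 fell and 27 did not pass. The 15.6% called was near the 16.8% of all genes, so the count is no result about the list. The median log2 change was -0.02, and 11 of the 32 lay within the background range, where a change could not be read reliably. CCL26, an eosinophil attractant, rose by 0.38 (SE 0.05, adjusted p = 0.00351, limma), from 7.85 ± 0.07 to 8.24 ± 0.03 (SD, n = 3 each). CCL28, a mucosal epithelial chemokine, rose by 0.37 (SE 0.09) and the membrane-bound CXCL16 by 0.15 (SE 0.04), and PF4 rose as given above. CX3CL1 (fractalkine), which is tethered to the membrane, fell by 0.30 (SE 0.06), from 8.31 ± 0.04 to 8.01 ± 0.11 (SD, n = 3 each). Its other probe set gave 0.02. With 1 array left out 1 to 3 genes of this list were called. CCL26 passed in all 6 of these fits and CXCL16 in 0. CCL28 lost its call without CDKL1 shRNA replicate 1 or 2 or control replicate 1 or 3 (adjusted p up to 0.0868), and CX3CL1 without CDKL1 shRNA replicate 3 or control replicate 1 or 3 (adjusted p up to 0.0653).

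Among genes of NF-kappaB itself, 6 of 17 measured subunits, kinases and inhibitors rose and 0 fell, with a median log2 change of 0.10. The share of 35.3% stood beside 16.8% of all genes called in either direction. CYLD, a deubiquitinase that restrains it, rose by 0.69 (SE 0.05, adjusted p = 0.000425, limma), from 7.72, 7.86 and 7.86 to 8.47, 8.51 and 8.54, with 0.02 to 0.69 over its 4 probe sets. TNFAIP3 (A20), an NF-kappaB-induced feedback inhibitor, rose by 0.41 (SE 0.06) by its brightest probe set, and its 2 probe sets gave 0.35 and 0.41. The inhibitor gene NFKBIB rose by 0.30 (SE 0.05), though 1 of its 4 probe sets gave -0.16. NFKBIZ, a nuclear cofactor, rose by 0.28 (SE 0.04). The subunit gene REL rose by 0.19 (SE 0.05), and lost its call without any 1 of the 6 arrays (adjusted p = 0.0558 to 0.105). CHUK, the gene of the kinase IKK-alpha and the last of the 6, rose by 0.19 (SE 0.05, adjusted p = 0.0425, limma). CHUK and the inhibitor genes that did not pass are named here after their values were seen. NFKBIA had a log2 change of -0.06, NFKBIE of -0.13, BCL3 of -0.07 and TNIP1 of 0.03. With 1 array left out 4 of the 17 genes were called in every case, CYLD, TNFAIP3, NFKBIZ and NFKBIB, and so CHUK in none.

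**Figure D5:**
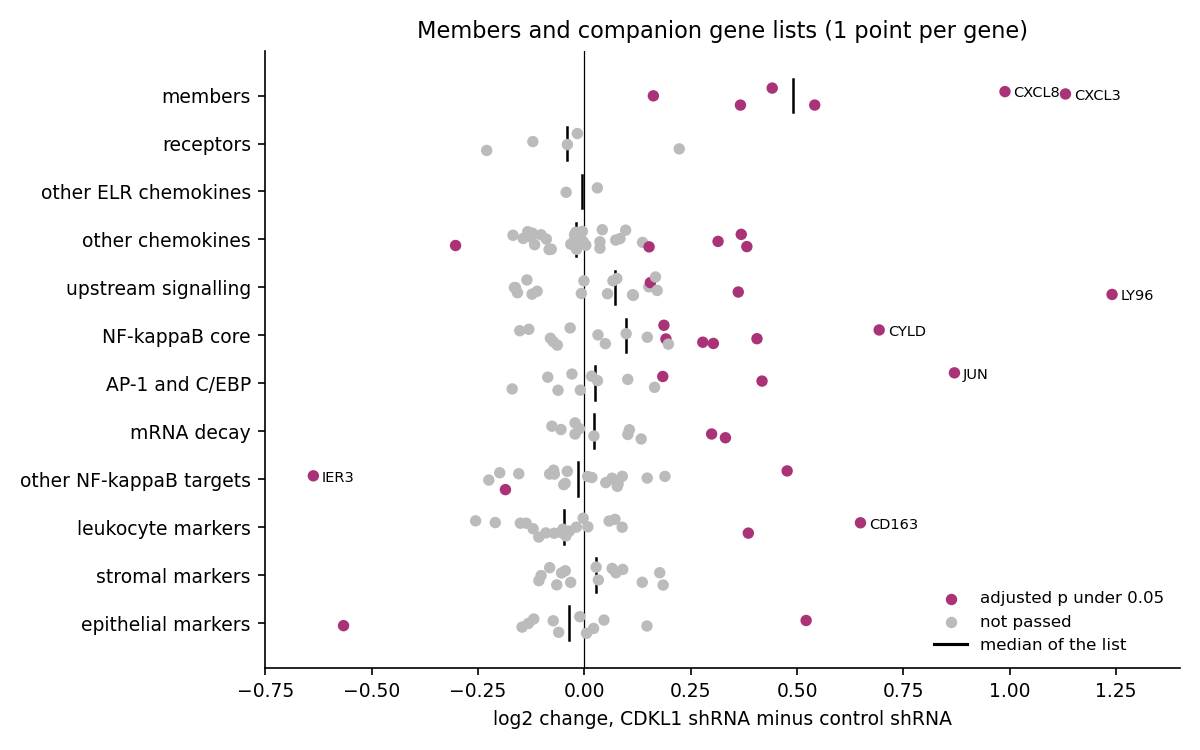
Log2 change (CDKL1 shRNA minus control shRNA, horizontal axis) of each measured gene in the chemokine group and in 11 companion lists (vertical axis), in purple where the adjusted p was under 0.05 and in grey where it was not, with a black bar at the median of a list. The medians of the companion lists lie between -0.05 and 0.10 and that of the chemokine group at 0.49. The chemokine group was picked for its rise in this comparison, so nothing is read from its higher median.

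Of receptors and adaptors upstream of NF-kappaB, 3 of 20 measured genes rose and 0 fell, beside 16.8% of all genes called, with a median log2 change of 0.07. LY96 (MD-2), the TLR4 partner that binds lipopolysaccharide, read 6.03, 5.86 and 5.78 in controls and 7.02, 7.29 and 7.08 with CDKL1 shRNA, and rose by 1.24 (SE 0.09, adjusted p = 0.000331, limma). IL1R1, the interleukin-1 receptor, rose by 0.36 (SE 0.05, adjusted p = 0.00516, limma), with 0.01 in its other probe set. The adaptor gene TRADD rose by 0.16 (SE 0.04), with -0.14 in its other probe set, and lost its call without any 1 of the arrays (adjusted p = 0.0503 to 0.146).

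Of 12 AP-1 and C/EBP genes 3 rose and 0 fell, beside 16.8% of all genes called, with a median log2 change of 0.02. JUN, the core AP-1 subunit, read 8.26, 8.23 and 8.36 in controls and 9.14, 9.16 and 9.16 with CDKL1 shRNA. It rose by 0.87 (SE 0.05, adjusted p = 0.000157, limma), and its 4 probe sets gave 0.77 to 1.06. ATF3, a stress-induced partner of JUN, rose by 0.42 (SE 0.05), although 2 of its 7 probe sets were below 0. CEBPD rose by 0.18 (SE 0.05) and lost its call without any 1 of the arrays (adjusted p = 0.051 to 0.129).

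Among proteins that bind AU-rich elements or act with them, 2 of 11 measured genes rose and 0 fell, 18.2% beside 16.8%, with a median log2 change of 0.02. KHSRP, which promotes decay of AU-rich transcripts, rose by 0.33 (SE 0.05, adjusted p = 0.00481, limma) by its brightest probe set, and its 4 probe sets ran from -0.01 to 0.33. ZFP36L2, a decay factor of the tristetraprolin family, rose by 0.30 (SE 0.07), with probe sets from -0.14 to 0.36, and lost its call without any 1 array other than CDKL1 shRNA replicate 1 (adjusted p up to 0.0737).

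Of 22 other measured inflammatory genes known as NF-kappaB targets 1 rose, 2 fell and 19 did not pass. The 13.6% called was near the 16.8% of all genes, with a median log2 change of -0.02, and 3 of the 22 lay within the background range. The list was not tested against the chemokine genes. The adhesion molecule gene ICAM1 rose by 0.48 (SE 0.10), from 8.24, 7.87 and 7.91 to 8.38, 8.54 and 8.52, by its brightest probe set. Its 3 probe sets gave 0.24 to 0.48, and 2 of them passed in the fit over all probe sets. ICAM1 lost its call without CDKL1 shRNA replicate 2 or 3 or control replicate 2 or 3 (adjusted p up to 0.0742). IER3, an early-response survival gene, fell by 0.64 (SE 0.05, adjusted p = 0.00031, limma), from 12.35 ± 0.03 to 11.71 ± 0.05 (SD, n = 3 each). The iron-binding defence protein gene LCN2 fell by 0.19 (SE 0.05), and lost its call without any 1 array other than control replicate 1 (adjusted p up to 0.124) and after each array's median was subtracted (adjusted p = 0.108). With 1 array left out 1 to 5 genes of this list were called.

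Markers of other cell types were read in the same arrays. The leukocyte marker PTPRC (CD45) stood at mean levels of 3.15 to 3.55 in all 6 of its probe sets, within the background range. In that range lay 6 of the 20 measured leukocyte markers, and the brightest, ITGAX, stood at 7.82. Since the full set of 23 background controls reached 10.74, a level above that range does not show that a marker was expressed. Of 20 measured leukocyte markers 2 rose and 0 fell, beside 16.8% of all genes called in either direction. These were CD163, by 0.65 (SE 0.06), and CD68, by 0.39 (SE 0.08). The summed log2 level of the list was 108.8 to 109.6 in control arrays and 109.0 to 109.0 in CDKL1 shRNA arrays. CD163 rose from 4.56, within the background range. By its brightest probe set CD68 lost its call without CDKL1 shRNA replicate 2 or 3 or control replicate 1 or 2 (adjusted p up to 0.0627). The other probe set of CD68 gave 0.70, and 2 of 2 passed in the fit over all probe sets. Of 15 fibroblast and endothelial markers, beside the same share of all genes, 0 passed in limma and 0 reached an unadjusted p under 0.05, and the summed level was 76.1 to 76.8 in control and 75.8 to 77.7 in CDKL1 shRNA arrays. Of these 15, 6 lay within the background range. COL1A1 stood at 6.18 and PECAM1 at 5.89 by their brightest probe sets, above that range. The 12 epithelial markers had mean levels from 5.37 to 14.25, with EPCAM at 13.0 to 13.5 over its probe sets and CDX2 at 10.7. VIL1 (5.57), CDX1 (6.19), GPA33 (6.15) and LGALS4 (5.37) lay below the lowest array median over all probe sets, 6.64. Of the 12, KRT20 rose by 0.52 (SE 0.05), VIL1 fell by 0.57 (SE 0.12) and 10 did not pass, which is 16.7% called beside 16.8% of all genes. VIL1 lost its call without control replicate 1 or 3 (adjusted p up to 0.0639). The part of these markers in the values of the chemokine genes was not tested, and in bulk RNA a change in the number of expressing cells cannot be told apart from a change per cell.

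Of the 168 companion genes measured, 26 passed (15.5%), 22 higher and 4 lower. With the ACTB difference as a covariate, which costs precision as said above, 4 of these 26 also passed, JUN (0.88), LY96 (0.996), CYLD (0.68) and IER3 (-0.72). The log2 changes themselves also moved with it, in both directions. PF4 went from 0.31 to 0.14 and VIL1 from -0.57 to -0.16, whereas CX3CL1 went from -0.30 to -0.48 and CCL28 from 0.37 to 0.48. The cause of these shifts was not tested.

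The genes whose pattern was most like that of CXCL8 were sought among all genes by the root-mean-square difference over the 6 arrays, after each gene's control mean was subtracted. The 5 nearest were ALG5, a glucosyltransferase gene of N-glycan assembly (0.048 log2 units), TMEM208 (0.079), PROM1, which encodes the stem cell marker CD133 (0.085), TMEM45A (0.087) and the Golgi protein gene BLZF1 (0.087). CXCL3 came 18th, at 0.132, and CXCL2 149th, at 0.321. For CXCL3 the 5 nearest were MIR22HG, the host transcript of miR-22 (0.097), BLZF1 (0.099), the carboxypeptidase gene CPA4 (0.104), LY96 (0.115) and the MAP kinase phosphatase gene DUSP1 (0.120), and CXCL8 came 8th. This measure follows the size of the difference between groups as well as its course over the arrays.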

How the data were processed

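The authors deposited 1 log2 expression value per probe set and array, which the submitters' processing notes credit to RMA (background correction, quantile normalisation and probe summary). The sources used here do not give its version and settings or the genome build behind the probes. Probe sets were named through the platform annotation, in which 44988 of 49395 had 1 symbol, and each of 18132 genes was read by its brightest probe set over all 6 arrays, with no filter on dim genes. Group was the single term of the model fitted across all genes with limma 3.58.1 in R 4.3.3 (two-sided, moderated by eBayes), with Benjamini-Hochberg adjustment and a threshold of 0.05. SEs, intervals and adjusted p-values are from this fit, and those of further probe sets are from a fit over all 44988 probe sets. The fit was tried on simulated data on these 18132 genes, with 50 genes changed at each fold. It recovered 44% of genes changed 1.25-fold, 78% at 1.5-fold, 98% at 2-fold and 100% at 3-fold, and called 9 unchanged genes. Far fewer genes were changed there than the 3040 called here, which makes the adjustment stricter. These rates therefore do not carry over to the comparison of the 2 shRNAs. The members and all gene lists were chosen with earlier results of these data known. Genes named from a companion list were those called, at most the 5 with the smallest adjusted p, and all receptors and Glu-Leu-Arg chemokines. Promoters came from RefSeq (GRCh38.p14), in which 6 of 6 members were matched by symbol. They were searched and aligned with Python 3.11.15 and Biopython 1.88, and figures were drawn with matplotlib 3.10.9. Protein sequences were not used here. The number of arrays, 3 per group, limits the precision of every value.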

Additional observations from a re-analysis of the deposited data

How the results depend on the processing

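All 6 genes kept a positive change under each of the 15 alternatives. These use the same arrays on which the genes were picked for their rise, so nothing is read from the shared sign. With 1 array left out, 5 to 6 of the 6 were called, 1633 to 2399 genes in all and 14 to 20 companion genes. The ACTB covariate, which overlaps with group and costs precision, left 2 of the 6 called, 219 genes in all and 4 companion genes. The log2 changes with it were 0.36 for CXCL1, 1.02 for CXCL3 and 0.93 for CXCL8. The mean of all probe sets gave 0.25 for CXCL1 and 1.24 for CXCL3, and 81 genes called higher and at least 1.5-fold in place of 125. The probe set with the largest interquartile range gave 0.61 for CXCL2, 1.35 for CXCL3 and 0.22 for CXCL5, 228 genes called higher and at least 1.5-fold, and turned TRADD to -0.14. No label says that the replicate numbers pair the samples, and the main fit did not pair them. Deviations of same-numbered arrays from their group means correlated at -0.03, -0.12 and 0.07 across genes. With 3 arrays per group these values cannot decide whether samples were paired. With the replicate block 1803 genes, 17 companion genes and 5 of the 6 members were called, CXCL5 not. CXCL5 also did not pass in the fit over all probe sets. The causes of these differences were not tested. CXCL6 and PPBP, at background level, limit what can be said of them.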

Other observations

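Growth factor genes of the epidermal growth factor family lie beyond CXCL2 on chromosome 4, and they were looked at after their values were seen. EREG (epiregulin) was bright, with a mean of 12.72 ± 0.02 in the controls and of 12.80 ± 0.06 under CDKL1 shRNA (SD, n = 3 each) and a log2 change of 0.08 (SE 0.05, adjusted p = 0.306, limma). BTC (betacellulin) had a log2 change of 0.19 (SE 0.07, adjusted p = 0.0972) and EPGN (epigen), within the range of background controls, of -0.01. MTHFD2L, a mitochondrial folate enzyme gene next to CXCL2, fell by 0.18 (SE 0.05, adjusted p = 0.0406). On the other side of the cluster RASSF6, next to CXCL8 among the measured genes, had a log2 change of 0.44 (SE 0.13, adjusted p = 0.0603), from a control level of 4.47 within the background range.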
